A study of Mus musculus with 12 samples.

Results

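The genes described here encode the proteins of the cytosolic ribosome. They were taken as the protein-coding rows of the gene table whose symbol is Rpl or Rps followed by a number, with or without an a or x, or is Rplp0, Rplp1, Rplp2 or Rpsa. This rule found 76 of the 54532 genes in the table, with 30 genes of the small (40S) subunit, 43 of the large (60S) subunit and the 3 genes of the acidic stalk of the 60S subunit. Of these 76 genes, 75 reached a mean of 1 FPKM (fragments per kilobase of gene length and per unit of sequencing depth) over the 12 libraries and were tested among 9743 genes, and Rpl24, at a mean of 0.320 FPKM, was not.

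The study sequenced RNA of primary hepatocytes, the main cell type of the liver, taken from 6-week-old mice, with 3 libraries in each of 4 groups. The groups are HKO cells given PA, HKO cells given BSA, Flox cells given PA and Flox cells given BSA, where HKO and Flox are G3bp1 genotypes and PA and BSA are treatments. The stated aim was to learn how G3BP1 bears on NASH, a fatty liver disease with inflammation. The labels spell out none of these abbreviations and give neither the driver of the deletion nor the dose and duration of the treatment. No label says whether the 3 libraries of a group came from separate mice, so the p-values measure the spread between these libraries, which may be technical.

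A ribosome joins a small subunit, which decodes the mRNA, to a large subunit, which forms the peptide bond and holds the exit tunnel. Each subunit needs about equal numbers of nearly all its proteins, and surplus ribosomal proteins are degraded. The mRNAs are short, abundant and carry a 5′ terminal oligopyrimidine (TOP) tract, a C at the first base followed by a run of C and T, through which mTORC1 and the RNA-binding protein LARP1 control their translation and stability. G3BP1 is an RNA-binding protein that nucleates stress granules, into which stalled 40S subunits and mRNAs collect.

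The labels were checked against G3bp1 itself, which lay between 7.03 and 8.09 FPKM in HKO with PA and between 7.77 and 8.5 FPKM in HKO with BSA, against 38.97 to 41.64 FPKM in Flox with PA and 37.74 to 45.72 FPKM in Flox with BSA. None of the 12 hepatocyte or 14 macrophage markers looked up was at 0 in any group. The summed hepatocyte markers reached 13379 to 23023 FPKM in HKO with PA and 12560 to 22404 FPKM in HKO with BSA, against 9031 to 9496 FPKM in Flox with PA and 9074 to 10173 FPKM in Flox with BSA. Of these 12 markers, only 4 passed as higher in HKO in BSA and 5 in PA, and none passed as lower. The 14 macrophage markers summed to 126 to 158 FPKM in HKO with PA and 86.1 to 120.7 FPKM in HKO with BSA, against 1929 to 2188 FPKM in Flox with PA and 2253 to 2363 FPKM in Flox with BSA, and all 14 passed as lower in HKO under both treatments. Mitochondrial transcripts took 4.10 to 8.20% of reads in the 6 HKO libraries, against 2.21 to 4.34% in the 6 Flox libraries. Of 5 endothelial markers tested, 5 passed as lower in HKO in BSA and 2 in PA, both neutrophil markers tested passed as lower under both treatments, 1 and 2 of the 2 cholangiocyte markers tested passed as higher in BSA and in PA, and no stellate or lymphocyte marker reached the filter. The part of these differences in the results below was not tested, and in bulk RNA fewer cells of a type and less RNA per cell cannot be told apart. The genic reads per library, recovered as whole numbers from the FPKM steps, ran from 15020982 to 18418586.

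The annotated transcription starts of the members whose change departed most from the rest of the family are shown first, because the TOP tract at this place is the sequence the family is known for. Each line gives 30 bases, 15 before and 15 from the annotated start on (RefSeq, GRCm38.p6), 5′ to 3′. Capitals mark a run of at least 5 pyrimidines that opens with a C within 2 bases upstream or in the first 3 bases of the transcript. The first 4 genes had the highest changes in HKO against Flox in PA. The last 4 were the lowest relative to the family median, averaged over PA and BSA.
Rps4x, chrX:102189377-102189406, minus strand: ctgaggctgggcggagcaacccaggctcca
Rpl6, chr5:121204486-121204515, plus strand: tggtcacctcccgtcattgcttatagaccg
Rps6, chr4:86857353-86857382, minus strand: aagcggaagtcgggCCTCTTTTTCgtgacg
Rpl5, chr5:107900513-107900542, plus strand: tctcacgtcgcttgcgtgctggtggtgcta
Rps2, chr17:24720048-24720077, plus strand: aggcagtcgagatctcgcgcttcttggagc
Rps9, chr7:3704026-3704055, plus strand: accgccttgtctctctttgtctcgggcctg
Rplp2, chr7:141447636-141447665, plus strand: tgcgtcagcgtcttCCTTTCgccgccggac
Rps10, chr17:27635230-27635259, minus strand: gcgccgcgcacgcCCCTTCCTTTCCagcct

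A start was found in RefSeq for 56 of the 76 members. A C at the annotated first base followed by at least 4 pyrimidines stood in 13 of these 56 genes (23.2%), against 3.01% of all 27025 genes with a start in the same table. With the start allowed to shift by the few bases named above, the tract stood in 20 of 56 members (35.7%), against 10.6% of all genes. Of the 8 genes printed, Rps6, Rplp2 and Rps10 carry a capitalised tract and Rps4x, Rpl6, Rpl5, Rps2 and Rps9 do not, so the tract at the annotated start occurred both among the highest and among the lowest changes. Among the 55 tested members with a start, 10 of the 20 with the tract passed as higher in HKO against Flox in PA (median log2 change 0.47), and so did 25 of the 35 without it (median log2 change 0.62). The tract was sought only at the annotated start, so a member counted as without it may carry one where its transcription begins.

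Other promoter letters were looked up in the 250 bases before and 50 bases after the start. CCGGAAG, bound by ETS factors such as GABP, occurred on either strand in 41.1% of members, against 9.93% of all genes. GGGCGG, bound by SP1, occurred in 60.7% of members, against 38.2% of all genes. AAGATGGC, bound by YY1, occurred in 8.93% of members, against 3.19%, the E-box CACGTG in 10.7%, against 8.09%, and TATAAA, read on the gene's strand only, in 8.93%, against 9.77%. Members with CCGGAAG had a median log2 change of 0.595 in HKO against Flox in PA (15 of 23 higher), and members without it 0.56 (20 of 32 higher).

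The family took a large share of each library. In HKO with PA 9.60%, 7.42% and 7.15% of genic reads fell in the 76 rows. In HKO with BSA the shares were 7.21%, 5.84% and 6.73%. In Flox with PA they were 6.48%, 6.16% and 5.86%, and in Flox with BSA 6.75%, 6.597% and 6.42%. Library 1 of HKO with PA stood above every other library, and the HKO with BSA libraries overlapped both Flox groups. This library was the highest of all 12 for 72 of the 75 tested members, as the heat map of levels shows.

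**Figure D1:**
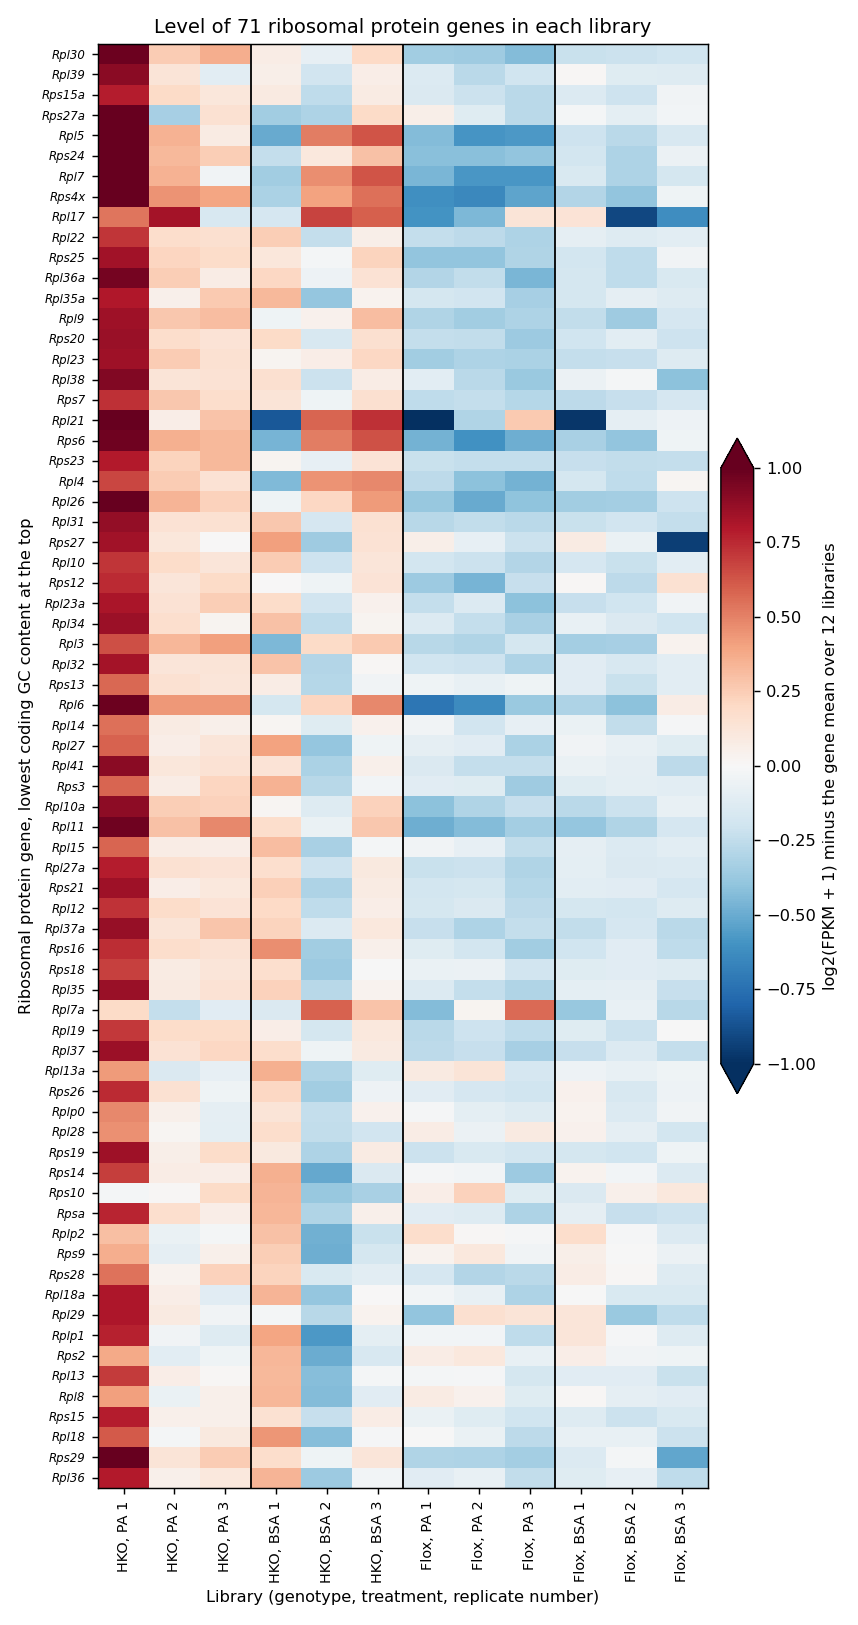
Level of 71 of the 75 tested ribosomal protein genes (rows, ordered by GC content of the coding sequence) in the 12 libraries (columns), as log2(FPKM + 1) minus the gene's mean over the 12 libraries. Library 1 of HKO with PA is the highest for 68 of them, and library 1 of HKO with BSA departs from the other HKO with BSA libraries in opposite directions for genes such as Rps6, Rpl5 and Rps4x near the top and Rps2, Rplp2 and Rps9 near the bottom.

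Within the family the mean level spanned a wide range. High in the order were Rplp1 (4563 FPKM over the 12 libraries), which forms the flexible stalk with Rplp2, and Rplp0 (1726 FPKM), the stalk base. The 3 lowest that were tested were Rpl13a (44.6 FPKM), a 60S surface protein, Rpl21 (35.7 FPKM) and Rps10 (2.70 FPKM), a 40S protein near the mRNA entry. These levels use the deposited gene length, the union of all exons, whose median over the members was 1775 bases, against 843 bases for the principal GENCODE transcript, so the order between members depends on it. The order of the members hardly differed between groups, with Spearman coefficients of the 75 group means from 0.961 (HKO with PA and Flox with PA) to 0.992 (HKO with PA and HKO with BSA), given as a description.

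Rplp1 had 7600, 4329 and 4070 FPKM in HKO with PA and 5833, 2991 and 4150 FPKM in HKO with BSA, against 4364, 4356 and 3734 FPKM in Flox with PA and 4846, 4422 and 4059 FPKM in Flox with BSA. The HKO libraries numbered 1 were the highest of their groups and the groups overlapped.

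The spread between replicates was wider in HKO than in Flox. The median member's SD between replicates was 0.369 on the log2 scale in HKO with PA and 0.268 in HKO with BSA, against 0.076 in Flox with PA and 0.081 in Flox with BSA, and the same median over all 9743 genes was 0.223, 0.210, 0.114 and 0.104 in the same 4 groups. After each library was centred on its median member, the median SD was 0.098 in HKO with PA and 0.145 in HKO with BSA, against 0.070 in Flox with PA and 0.086 in Flox with BSA. Centring thus lowered the spread most in HKO with PA, less in HKO with BSA, and hardly or not at all in the Flox groups.

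Ribosomal protein genes were higher in HKO than in Flox cells when both had PA. Of the 75 members, 45 rose, none fell and 30 did not pass (limma on log2(FPKM + 1), Benjamini-Hochberg adjusted p under 0.05 over all 9743 genes), where 16.9% of all genes tested passed as higher and 18.8% as lower. The median log2 change of the members was 0.59 and ran from -0.105 (Rpl7a) to 1.22 (Rps4x), beside a median of 0.00 over all genes, and 74 of 75 members had a fitted change above 0. All 3 HKO libraries lay above all 3 Flox libraries for 57 members, where 26.0% of all genes did so, and below them for none. Of the 30 genes of the 40S subunit 18 rose (median log2 change 0.55), of the 42 tested genes of the 60S subunit outside the stalk 27 rose (median 0.605), and of the 3 stalk genes none passed (median 0.23).

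This count moved with single libraries and with the length trend. Without library 1 of HKO with PA 28 members rose and the median log2 change was 0.37, and without library 2 or library 3 of Flox with PA 29 and 27 rose. Across the 9661 other genes tested, the change in this comparison had a Spearman coefficient of -0.39 with transcript length and -0.36 with transcript GC content, and the members are short, with a median of 843 bases, against 2494 bases for all genes tested. With the trend on transcript length removed from each library, 25 members rose and Rps9 fell (log2 change -0.32, adjusted p = 0.0476), and the median log2 change was 0.25. The shares of all genes that passed under these settings are not given here, so these counts cannot be set against all genes. Of the 45 genes, 21 passed as higher under each of 17 other settings (named with the methods, without the 4 chosen after the values were seen), among them Rps4x, Rps6, Rps7, Rps20, Rps23, Rps24, Rps25, Rpl6, Rpl7, Rpl9, Rpl10a, Rpl11, Rpl22, Rpl23, Rpl26, Rpl30, Rpl31, Rpl36a, Rpl37 and Rpl37a.

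**Figure D2:**
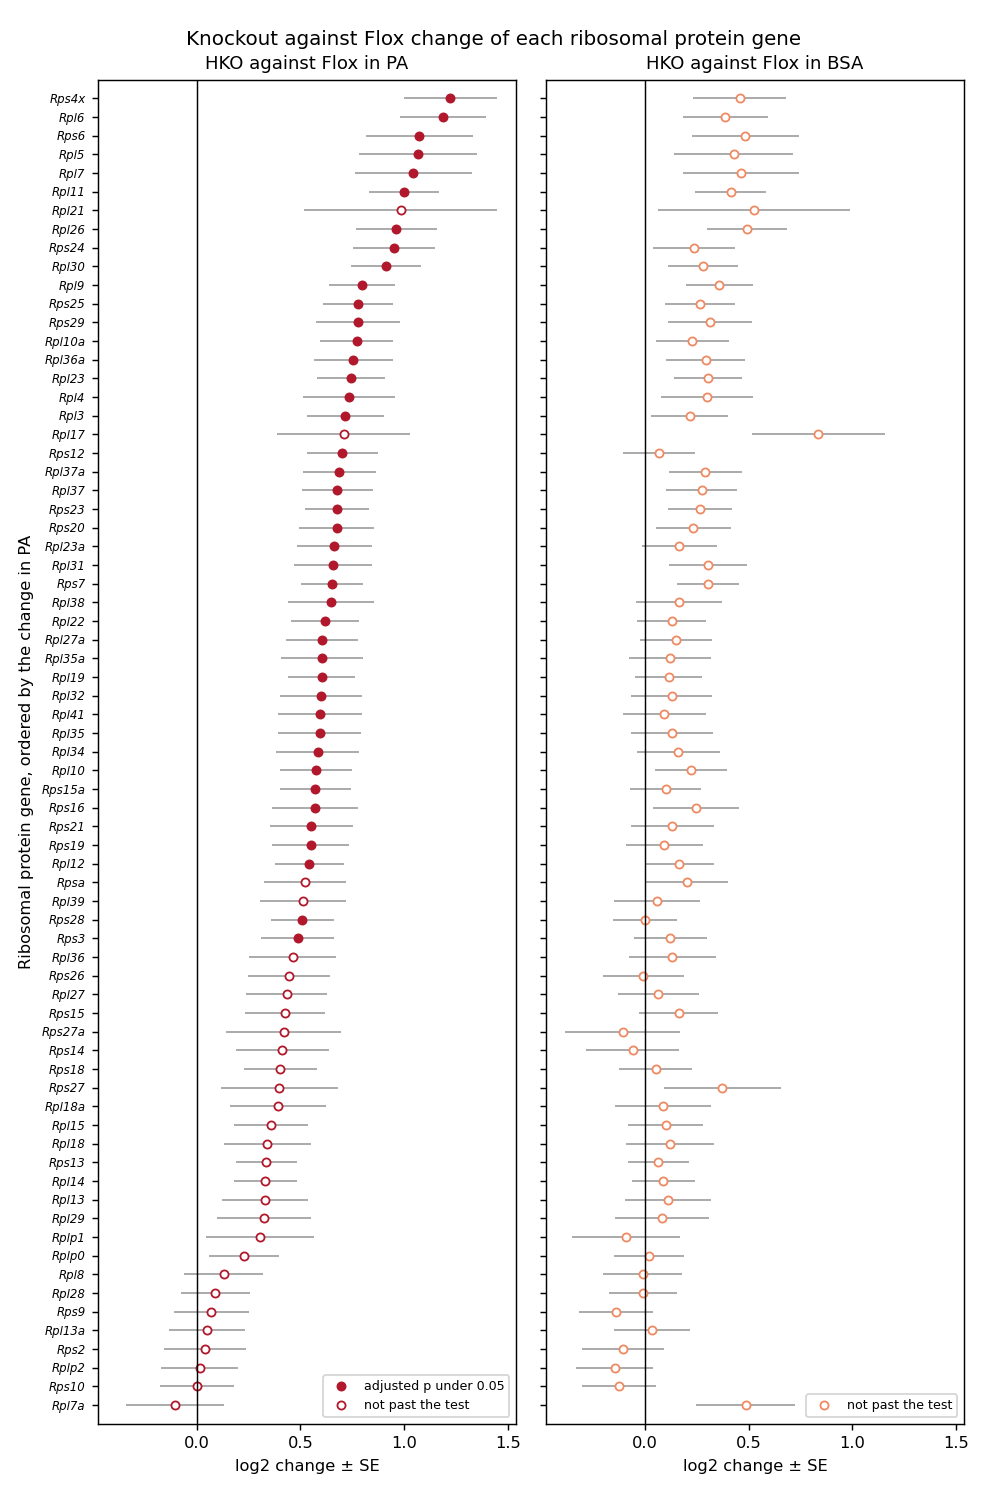
Log2 change in HKO against Flox with its SE for 71 of the 75 tested members, in PA (left) and in BSA (right), in the order of the change in PA. Filled points passed the test at an adjusted p under 0.05, which 42 of the members shown did in PA and none in BSA.

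The 4 members with the highest change in PA were Rps4x, Rpl6, Rps6 and Rpl5. Rps4x, an X-linked 40S protein, had 1009, 669 and 643 FPKM in HKO with PA and 394, 649 and 718 FPKM in HKO with BSA, against 319, 313 and 340 FPKM in Flox with PA and 399.5, 372 and 476 FPKM in Flox with BSA. The HKO and Flox libraries given PA were apart, with the lowest HKO value above the highest Flox value. Its log2 change in PA was 1.22 ± 0.22 (SE, adjusted p = 0.00106, limma), a 2.33-fold difference on the log2(FPKM + 1) scale.

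Rpl6, a 60S protein, had 799.8, 548 and 549 FPKM in HKO with PA and 359, 471 and 566 FPKM in HKO with BSA, against 246, 262 and 314 FPKM in Flox with PA and 328, 305 and 427 FPKM in Flox with BSA. The groups given PA did not overlap and those given BSA did. Its log2 change in PA was 1.19 ± 0.21 (SE, adjusted p = 0.000697, limma).

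Rps6, the 40S protein that S6 kinases phosphorylate downstream of mTORC1, had 966, 629.5 and 614 FPKM in HKO with PA and 355, 702 and 766 FPKM in HKO with BSA, against 354, 322.5 and 350.2 FPKM in Flox with PA and 392, 373 and 477 FPKM in Flox with BSA. In HKO with BSA, library 1 lay below all Flox with BSA libraries and libraries 2 and 3 above them. The log2 change in PA was 1.07 ± 0.26 (SE, adjusted p = 0.00612, limma).

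Rpl5, which with Rpl11 and 5S rRNA forms the particle that can bind and inhibit MDM2, had 295, 167 and 139 FPKM in HKO with PA and 92.1, 187.5 and 203 FPKM in HKO with BSA, against 96.6, 86.8 and 87.4 FPKM in Flox with PA and 113, 108 and 117 FPKM in Flox with BSA. All HKO with PA libraries were above all Flox with PA libraries, by a log2 change of 1.07 ± 0.29 (SE, adjusted p = 0.0116, limma). Without library 1 of HKO with PA the log2 change of Rpl5 was 0.75 and the adjusted p 0.0515. Its partner Rpl11 had 555, 347 and 394 FPKM in HKO with PA, against 202, 209 and 224 FPKM in Flox with PA, the smallest adjusted p of the family (0.00057, limma, log2 change 0.998 ± 0.17 SE).

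**Figure D3:**
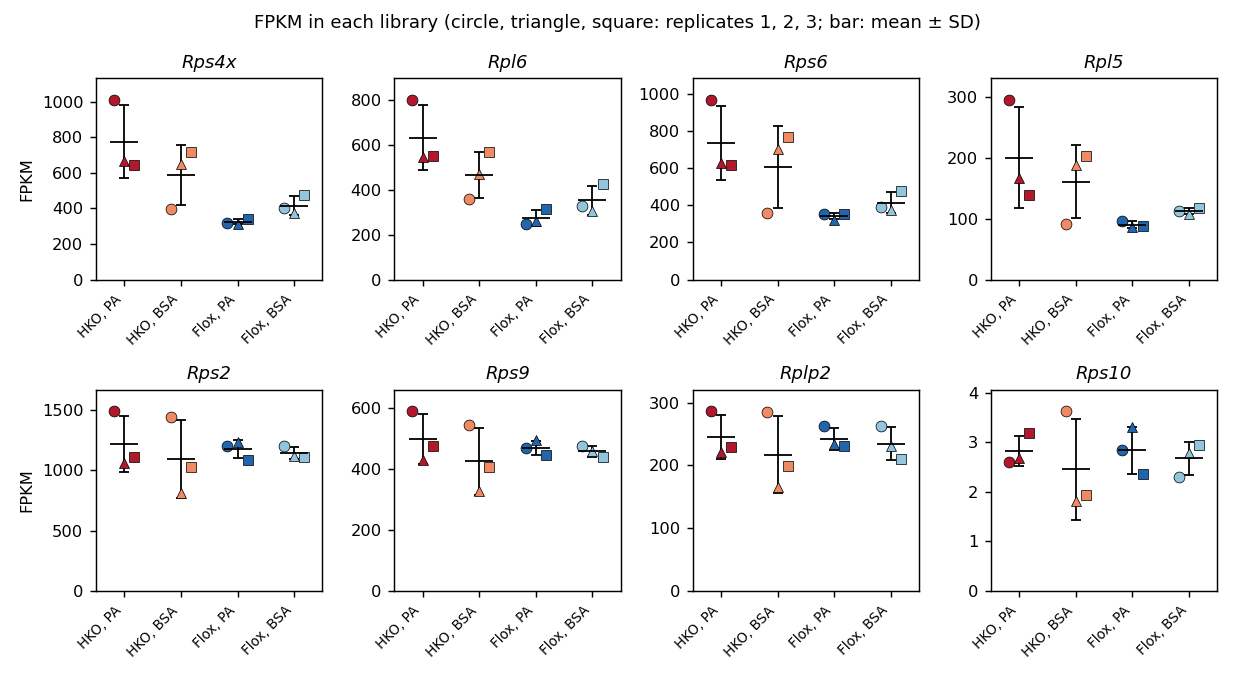
FPKM of 8 members in each library, with the mean and SD of each group of 3. The top row holds the 4 members with the highest change in HKO against Flox in PA, whose HKO with PA libraries all lie above the Flox with PA libraries. The bottom row holds the 4 lowest relative to the family median, whose HKO and Flox libraries overlap under each treatment.

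A set of members did not share this difference. Rps2, a 40S protein at the mRNA entry, had 1487, 1061 and 1108 FPKM in HKO with PA and 1443, 809 and 1025 FPKM in HKO with BSA, against 1202, 1232 and 1088 FPKM in Flox with PA and 1196, 1118 and 1110.0 FPKM in Flox with BSA. The groups overlapped under both treatments (log2 change in PA 0.04 ± 0.20 SE, adjusted p = 0.895, limma). Under quantile normalization Rps2 passed as lower in PA (log2 change -0.47, adjusted p = 0.011, limma), as did Rpl8 (log2 change -0.34, adjusted p = 0.0286, limma), while 29 members passed as higher. The share of all genes that passed under quantile normalization is not given here. Rps9, a 40S protein near the mRNA entry, had 588, 429 and 473 FPKM in HKO with PA, against 468, 493 and 446 FPKM in Flox with PA, again with overlap (log2 change 0.07 ± 0.18 SE, adjusted p = 0.782, limma).

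Rplp2, which pairs with Rplp1 on the stalk, had 286, 222 and 229.7 FPKM in HKO with PA and 285, 166 and 199 FPKM in HKO with BSA, against 263, 234 and 230.4 FPKM in Flox with PA and 263, 230.2 and 211 FPKM in Flox with BSA. Its log2 change in PA was 0.015 ± 0.185 (SE, adjusted p = 0.96, limma). Rpl13a and Rpl7a, both 60S proteins, had log2 changes of 0.05 and -0.105 in PA (adjusted p = 0.856 and 0.755, limma).

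To describe the departure from the family, each library was centred on its median member and the test was run again. Relative to that median, 10 members were lower in HKO against Flox in PA (among them Rpl7a, Rps10, Rplp2, Rps2, Rpl13a, Rps9, Rpl28, Rpl8 and Rplp0) and 5 were higher (Rps4x, Rpl6, Rpl11, Rpl26 and Rpl30), 15 of 75 in all. On that scale 55.2% of all genes passed as lower and 2.51% as higher, since centring on the family moves every other gene by the family's own change. The relative log2 change was 0.64 ± 0.21 (SE) for Rps4x (adjusted p = 0.0176, limma) and -0.54 ± 0.13 for Rps2 (adjusted p = 0.00322, limma).

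The members that were high and low relative to the family differed in base composition. Across the 75 members the Spearman coefficient between the change in HKO against Flox in PA and the GC content of the coding sequence was -0.61, and with coding length it was -0.01, both as descriptions over genes that share the same 6 libraries. On transcript GC content the members had -0.44 in PA, near the -0.36 of the 9661 other genes tested. In BSA the members had -0.43 on that measure and the other genes 0.03. The members were split into 3 equal sets by coding GC content after the values were seen, and 20 of 25 rose in the lowest set (44.9 to 50.7% GC, median log2 change 0.73), 19 of 25 in the middle set (50.8 to 54.6%, median 0.595) and 6 of 25 in the highest set (54.7 to 61.6%, median 0.34). With a trend on transcript GC content removed from each library 44 members passed as higher, and with trends on length and GC content removed 26 did. The shares of all genes under these settings are not given here, so these counts cannot be set against all genes.

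The first 90 coding bases of the 8 members whose starts are given above are printed 5′ to 3′ from the start codon, with G and C in capitals, to show the base composition of both sets (GENCODE M21 principal transcripts, GRCm38).
Rps4x, gene at chrX:102184941-102189394, minus strand: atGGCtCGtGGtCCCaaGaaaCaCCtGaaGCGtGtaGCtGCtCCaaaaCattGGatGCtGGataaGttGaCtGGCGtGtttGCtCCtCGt
Rpl6, gene at chr5:121204481-121209241, plus strand: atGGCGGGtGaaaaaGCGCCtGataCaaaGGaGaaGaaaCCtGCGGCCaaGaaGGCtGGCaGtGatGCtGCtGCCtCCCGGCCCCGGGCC
Rps6, gene at chr4:86854660-86857412, minus strand: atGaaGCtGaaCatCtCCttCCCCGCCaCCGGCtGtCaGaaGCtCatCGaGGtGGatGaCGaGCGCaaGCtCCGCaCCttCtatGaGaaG
Rpl5, gene at chr5:107900502-107909005, plus strand: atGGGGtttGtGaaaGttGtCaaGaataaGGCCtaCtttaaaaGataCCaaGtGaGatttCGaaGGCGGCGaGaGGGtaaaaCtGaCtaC
Rps2, gene at chr17:24718116-24721929, plus strand: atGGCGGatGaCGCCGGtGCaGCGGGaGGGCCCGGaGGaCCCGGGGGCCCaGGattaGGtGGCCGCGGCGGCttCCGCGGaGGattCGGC
Rps9, gene at chr7:3703993-3706897, plus strand: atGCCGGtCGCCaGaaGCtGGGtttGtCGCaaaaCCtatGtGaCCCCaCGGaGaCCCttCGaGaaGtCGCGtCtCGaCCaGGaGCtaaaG
Rplp2, gene at chr7:141447370-141451585, plus strand: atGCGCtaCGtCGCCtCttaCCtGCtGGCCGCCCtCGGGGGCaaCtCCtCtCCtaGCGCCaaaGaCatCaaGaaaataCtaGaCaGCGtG
Rps10, gene at chr17:27630418-27636669, minus strand: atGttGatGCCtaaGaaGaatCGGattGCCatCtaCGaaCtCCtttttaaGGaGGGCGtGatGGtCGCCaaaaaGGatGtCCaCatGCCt

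Over the whole coding sequence G and C make up 47.7% for Rps4x, 52.5% for Rpl6, 50.2% for Rps6 and 46.0% for Rpl5, against 58.4% for Rps2, 56.9% for Rps9, 56.8% for Rplp2 and 56.6% for Rps10. The stretches printed do not separate the sets in this way. Their shares are 51.1% for Rps4x, 62.2% for Rpl6, 56.7% for Rps6 and 42.2% for Rpl5, against 75.6% for Rps2, 57.8% for Rps9, 57.8% for Rplp2 and 46.7% for Rps10, so that Rpl6 lies above Rps9 and Rplp2, and Rps10 lies below Rps4x. The libraries themselves differed in how levels ran with GC content. Over the genes outside the family, the Spearman coefficient between transcript GC content and a library's deviation from the gene mean was -0.335, -0.396 and 0.135 in HKO with PA and 0.573, -0.389 and -0.314 in HKO with BSA, against 0.206 to 0.464 in Flox with PA and -0.081 to -0.015 in Flox with BSA. Library 1 of HKO with BSA thus stood at the high end and the other libraries of its group at the low end, and the part of this in the members' values was not tested.

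**Figure D4:**
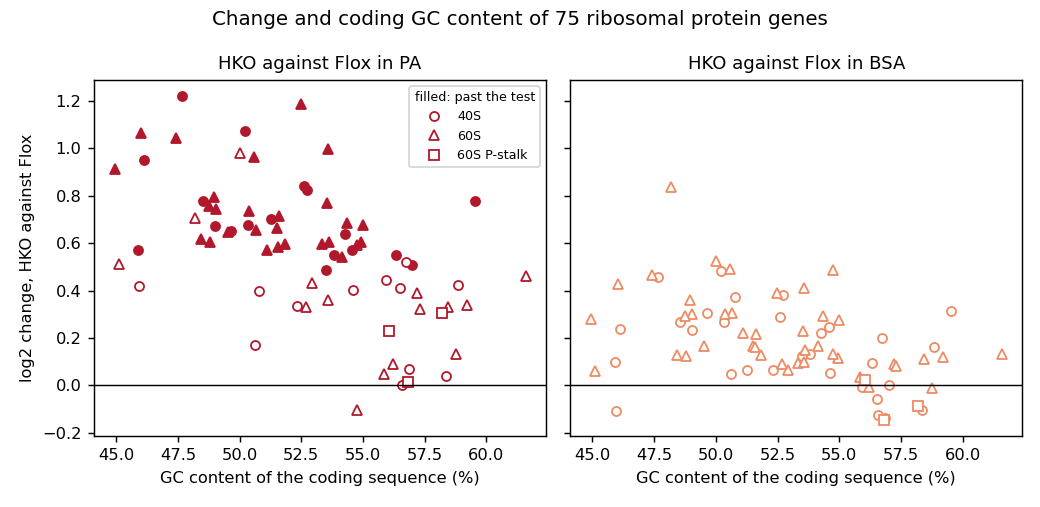
Log2 change in HKO against Flox in PA (left) and in BSA (right) against the GC content of the coding sequence, 1 point for each of the 75 tested members, with the shape giving the subunit and filled points those past the test. Members with a low GC content lie higher, with a Spearman coefficient of -0.61 in PA and -0.48 in BSA.

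In BSA no member passed in HKO against Flox, where 9.63% of all genes tested passed as higher and 10.8% as lower (limma). At an unadjusted p under 0.05 there were 4 members. The median log2 change was 0.16 (0.04 over all genes), with 65 of 75 fitted changes above 0, and ran from -0.14 (Rplp2) to 0.835 (Rpl17). All 3 HKO libraries lay above the Flox libraries for 13 members, where 19.7% of all genes did so. The 2 smallest p-values belonged to Rpl17 and Rpl26.

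Rpl26, a 60S protein near the exit tunnel, had 496, 590.1 and 686 FPKM in HKO with BSA, against 401, 405 and 444 FPKM in Flox with BSA, without overlap, and its log2 change was 0.49 ± 0.19 (SE, adjusted p = 0.0933, limma). In PA the same gene had 1046, 647 and 599 FPKM in HKO, against 393, 359.7 and 386 FPKM in Flox, and rose (log2 change 0.96 ± 0.19 SE, adjusted p = 0.00209, limma). Rpl17 had 260.1, 469 and 444 FPKM in HKO with BSA, against 322, 155 and 189.6 FPKM in Flox with BSA, with overlap (log2 change 0.835 ± 0.32 SE, adjusted p = 0.0852, limma).

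The count in BSA turned on single libraries. Without library 1 of HKO with BSA 8 members rose, among them Rpl3, Rpl4, Rpl5, Rpl17, Rpl26, Rps4x and Rps6, with Rps6 at a log2 change of 0.83 (adjusted p = 0.00715). Without library 1 of both HKO groups 20 members rose and Rps2, Rps9, Rps10 and Rplp2 fell, and without library 1 of Flox with BSA Rpl17 rose alone. With libraries weighted by their agreement with the rest of their group, which gave library 1 of HKO with PA and library 1 of HKO with BSA weights of 0.145 each, 33 members rose and 3 fell in BSA. Under quantile normalization the median log2 change in BSA was -0.02 and Rplp0 passed as lower. The share of all genes that passed under each of these settings is not given here, so these counts are no result about the family.

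Whether PA changed the family within a genotype was asked next. In HKO no member passed for PA against BSA, where 1.68% of all genes passed as higher and 1.25% as lower (limma), and 12 members had an unadjusted p under 0.05. The median log2 change was 0.33, 74 of 75 fitted changes lay above 0, and the libraries given PA lay above those given BSA without overlap for 11 members, where 9.10% of all genes did so. Without library 1 of HKO with PA the median log2 change was 0.105. The smallest p-values belonged to Rps23, at the decoding centre, and Rpl30. Rps23 had 1063, 717 and 768 FPKM in HKO with PA, against 626, 581 and 674 FPKM in HKO with BSA, without overlap (log2 change 0.42 ± 0.15 SE, adjusted p = 0.145, limma). Rpl30 had 306, 184.5 and 199 FPKM in HKO with PA, against 164, 146 and 178 FPKM in HKO with BSA, also without overlap (log2 change 0.46 ± 0.17 SE, adjusted p = 0.145, limma).

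In Flox cells no member passed either, where 1.29% of all genes passed as higher and 0.913% as lower (limma), and none had an unadjusted p under 0.05. The median log2 change was -0.08, and 20 of 75 fitted changes lay above 0. The libraries given PA lay below those given BSA for 20 members, where 16.9% of all genes did so, and above them for 1, where 22.1% did. Rps12 had 181, 168 and 198 FPKM in Flox with PA, against 235, 193 and 258.5 FPKM in Flox with BSA, with overlap (log2 change -0.32 ± 0.17 SE, adjusted p = 0.381, limma). Rpl6, whose values are given above, had a log2 change of -0.36 ± 0.21 (SE, adjusted p = 0.405, limma).

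The difference between the PA effects in HKO and in Flox was tested as an interaction. No member passed (limma), where 0.164% of all genes passed as higher and 0.103% as lower, and 9 members had an unadjusted p under 0.05. The median log2 difference was 0.43, and without library 1 of HKO with PA it was 0.19. The smallest p-values belonged to Rpl6 (log2 difference 0.80 ± 0.29 SE, adjusted p = 0.21, limma) and Rpl30 (0.63 ± 0.24 SE, adjusted p = 0.22, limma).

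Many ribosomal protein genes have processed copies elsewhere in the genome whose sequence is almost that of the parent, and reads from the parent can be placed on a copy. Annotated genes at least 97% identical to a member over at least 90% of its coding sequence were found for 67 of the 76 members, in 336 rows of the table. These rows took under 1% of the joint reads for 16 members and over 10% for 29. For 5 members they took more than the gene's own row, with 98.9% for Rpl24, 97.6% for Rps10, 70.0% for Rpl17, 67.0% for Rpl21 and 50.6% for Rps29. The low levels of Rps10, Rpl21 and Rpl24 given above are those of their own rows. With the copies added, Rpl24 had means of 37.1 FPKM in HKO with PA, 27.0 in HKO with BSA, 24.6 in Flox with PA and 25.4 in Flox with BSA. It thus stayed low, below Rpl13a in every group. In the same order of groups Rpl21 then had means of 141.5, 110.8, 91.9 and 83.1 FPKM, and Rps10 141.0, 116.8, 104.5 and 101.5 FPKM.

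In an alternative added after the values were seen, the reads of the copies were added to each member and the copies' rows removed. All 76 members could then be tested and 46 rose in HKO against Flox in PA, with a median log2 change of 0.57 and all 76 fitted changes above 0. The share of all genes that passed under this setting is not given here, so the count cannot be set against all genes. Rps10, at 2.61, 2.69 and 3.18 FPKM in HKO with PA, against 2.84, 3.30 and 2.36 FPKM in Flox with PA from its own row, had 183, 124 and 116 FPKM in HKO with PA, against 110.2, 107 and 96.3 FPKM in Flox with PA with its copies. The HKO values then lay above the Flox values, and the log2 change was 0.40 ± 0.20 (SE, adjusted p = 0.126, limma), against 0.00 ± 0.18 (SE, adjusted p = 0.997) from its own row. Its place among the lowest members relative to the family thus rests on a row that holds few of the joint reads.

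Rpl17 had 425, 521.5 and 261 FPKM in HKO with PA, against 193.5, 214 and 319 FPKM in Flox with PA from its own row, which overlapped. With its copies it had 1951, 1335 and 1167 FPKM in HKO with PA, against 705, 695 and 873 FPKM in Flox with PA, and it rose (log2 change 0.94 ± 0.21 SE, adjusted p = 0.00393, limma). Rpl24, which holds a bridge between the subunits, had 51.7, 34.3 and 25.3 FPKM in HKO with PA, against 22.3, 24.9 and 26.5 FPKM in Flox with PA with its copies, with overlap (log2 change 0.52 ± 0.20 SE, adjusted p = 0.0569, limma). Rpl21 had 87.3, 33.0 and 38.5 FPKM in HKO with PA, against 14.0, 25.3 and 38.0 FPKM in Flox with PA from its own row (adjusted p = 0.112), and 195, 116 and 114 FPKM in HKO with PA, against 78.5, 94.6 and 102.5 FPKM in Flox with PA with its copies (log2 change 0.58 ± 0.21 SE, adjusted p = 0.0435, limma).

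**Figure D5:**
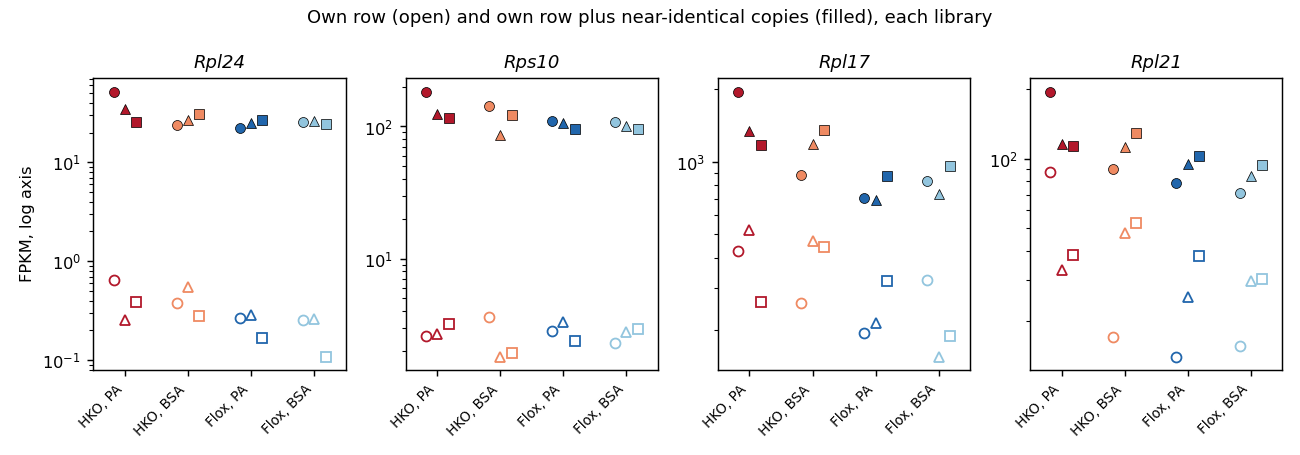
FPKM on a log axis of Rpl24, Rps10, Rpl17 and Rpl21 in each library, from the gene's own row (open) and with the reads of its near-identical copies added (filled). For Rpl17 the HKO with PA libraries lie above the Flox with PA libraries only with the copies added.

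The paralogs and the ribosomal proteins outside the symbol rule were looked up next. Of the 6 tested paralogs 4 rose in HKO against Flox in PA (median log2 change of the list 0.45), where 16.9% of all genes tested passed as higher. None passed in BSA, where 9.63% of all genes passed as higher. Rps27l, a p53-induced relative of Rps27, had 940.4, 579 and 577 FPKM in HKO with PA, against 480.4, 449.7 and 419 FPKM in Flox with PA (log2 change 0.60 ± 0.20 SE, adjusted p = 0.031, limma). Rpl7l1, a relative of Rpl7, had 55.4, 47.4 and 50.4 FPKM in HKO with PA, against 32.8, 35.9 and 39.4 FPKM in Flox with PA (log2 change 0.49 ± 0.15 SE, adjusted p = 0.0253, limma). Neither gene overlapped between the genotypes in PA.

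Rps27rt, a retroposed copy of Rps27, had a log2 change of 0.81 (adjusted p = 0.0255, limma). It is 100% identical to Rps27 over an aligned stretch of at least 90% of the Rps27 coding sequence. Reads that lie within that stretch cannot be told apart, and sequence outside the coding part was not compared. Rpl36al rose at a low level (0.93 to 1.37 FPKM in HKO with PA, against 0.52 to 0.81 FPKM in Flox with PA, log2 change 0.40, adjusted p = 0.0309). Rpl22l1 (log2 change 0.415, adjusted p = 0.179) and Rps4l (log2 change 0.07, adjusted p = 0.71) did not pass, and Rpl3l, Rpl10l and Rpl39l lay under the filter. Fau, which encodes a ubiquitin-like protein fused to the 40S protein S30, had 1519, 944 and 963 FPKM in HKO with PA, against 934, 965 and 853 FPKM in Flox with PA, with overlap (log2 change 0.28 ± 0.20 SE, adjusted p = 0.296, limma). Rack1, a 40S scaffold, did not pass either (log2 change 0.22, adjusted p = 0.287).

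Genes that share the TOP tract or serve the ribosome were looked up beside the family. Their counts are to be read against the 16.9% of all genes that passed as higher and the 18.8% that passed as lower in PA (9.63% and 10.8% in BSA). The change in PA ran with transcript length over the genes outside the family (Spearman coefficient -0.39). The values of this and the next 2 lists are given without that trend removed, and its part in them was not tested. Of 20 other TOP genes, 4 rose in HKO against Flox in PA, 2 fell and 14 did not pass (median log2 change 0.24), and the share that rose was near that of all genes. Those that rose were Naca and Btf3, subunits of the nascent polypeptide-associated complex (log2 changes 1.03 ± 0.23 and 0.75 ± 0.19 SE, adjusted p = 0.00388 and 0.00742), Tpt1 (0.72 ± 0.17, adjusted p = 0.00468) and the elongation factor subunit Eef1b2 (0.65 ± 0.14, adjusted p = 0.00373). Those that fell were the elongation factor Eef2 (-0.63 ± 0.18, adjusted p = 0.0176) and the poly(A)-binding protein Pabpc1 (-0.55 ± 0.11, adjusted p = 0.00232, all limma). Eef2 had 1028, 1231 and 1471 FPKM in HKO with PA, against 1860.0, 1944 and 1902 FPKM in Flox with PA, without overlap. Pabpc1 alone of the 20 passed in BSA, where it also fell (log2 change -0.495 ± 0.11 SE, adjusted p = 0.00608, limma).

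Of 45 ribosome biogenesis and RNA polymerase I genes, 4 rose and 7 fell in HKO against Flox in PA (median log2 change -0.05), and none rose and 4 fell in BSA (median -0.12). The shares that fell were near those of all genes under both treatments, so the counts are no result about the list. In PA the largest subunit of RNA polymerase I, Polr1a, fell (log2 change -0.60 ± 0.18 SE, adjusted p = 0.0178), as did Polr1b (-0.69 ± 0.21, adjusted p = 0.0199) and Rrp12, known in yeast for the export of pre-ribosomes, (-1.11 ± 0.24, adjusted p = 0.00315), while Polr1c, a subunit shared with RNA polymerase III, rose (0.52 ± 0.14, adjusted p = 0.0104, all limma). In BSA nucleolin, Ncl, fell to 22.3, 20.2 and 20.4 FPKM in HKO, against 56.4, 54.7 and 33.1 FPKM in Flox (log2 change -1.12 ± 0.25 SE, adjusted p = 0.00514, limma). Nolc1, a nucleolar phosphoprotein, fell beside it (log2 change -0.88 ± 0.14 SE, adjusted p = 0.00042, limma).

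Of 24 genes for mTORC1, LARP1 and regulators of the family, a list that holds G3bp1 itself, 7 fell and none rose in HKO against Flox in PA (median log2 change -0.085), and 3 fell and 1 rose in BSA. Of all genes 18.8% fell in PA and 10.8% in BSA. The share that fell in BSA was near that of all genes. Besides G3bp1, the deubiquitinase Usp10, a G3BP1 partner, fell to 7.996, 12.3 and 16.2 FPKM in HKO with PA, against 21.9, 20.9 and 25.0 FPKM in Flox with PA (log2 change -0.89 ± 0.19 SE, adjusted p = 0.0035, limma). Rptor, the mTORC1 scaffold, had a log2 change of -0.71 ± 0.20 (SE, adjusted p = 0.0171) and Larp1 of -0.69 ± 0.21 (adjusted p = 0.0232, both limma). Larp1 had 13.5, 23.8 and 29.4 FPKM in HKO with PA, against 32.3, 34.4 and 37.6 FPKM in Flox with PA, without overlap and with library 1 of HKO with PA the lowest.

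The mitochondrial ribosome, built from other genes, was set beside the cytosolic family. Of its 76 tested protein genes 43 rose in HKO against Flox in PA (median log2 change 0.51) and 9 in BSA (median 0.245), and none fell. Of all genes 16.9% rose in PA and 9.63% in BSA, so the share of the list in BSA was near that of all genes. The cytosolic family had 45 of 75 and none of 75 in the same comparisons, with medians of 0.59 and 0.16. The difference between these families was not tested. The counts of the mitochondrial list are given without the trend on transcript length removed, and its part in them was not tested.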

How the data were processed

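RNA-seq libraries of 12 samples (4 groups of 3) were analysed from a single table of gene FPKM values deposited by the authors, with the gene length in the same table. Per the labels' protocols, RNA was extracted with the RNeasy kit and libraries were made with NEBNext Ultra. The submitters' processing notes name the builds GRCm38 and mm10; the sources used here name no aligner or counting tool. Deposited FPKM times deposited gene length fell on whole reads for 100% of values of up to 1000 reads (tolerance 0.01 read), which gave 15020982 to 18418586 genic reads per library. The scaling the authors used gave effective library sizes of 13.44 to 19.14 M reads, so FPKM were not scaled by genic reads alone.

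The members and gene lists were chosen with earlier results of these data known. The 9743 genes averaging 1 FPKM or more were tested with limma 3.58.1 (trend) in R 4.3.3 on log2(FPKM + 1), 1 mean per group over all 12 libraries, with Benjamini-Hochberg adjustment over all genes tested and a threshold of 0.05. The pseudocount understates changes of low genes. Transcript length, GC content and coding sequences came from GENCODE M21 principal transcripts, which matched all 76 members; 54409 of 54532 gene IDs were in that release. Copies were found with BLAST 2.17.0. Start windows came from RefSeq (GRCm38.p6). The genes named are, for each comparison, up to 4 members per direction with the highest change among those past the test, or the 2 with the smallest p; the 3 highest and 3 lowest by level; the 4 per direction farthest from the family median; all tested paralogs and genes outside the symbol rule; and up to 4 of each other list. Rpl11, Rpl13a, Rpl7a and Rpl24 were named after their values were seen, as were the genes listed beside small counts. Some genes under this rule are not reported here, though counts over the family include them. The fit was tested on simulated data. Alternatives were another pseudocount and filters, quantile and TMM scaling, limma-voom on the computed reads, a length correction, library weights, only the groups compared, the replicate number as a block and leaving out libraries; GC corrections, a correction on the deposited length and adding the reads of copies were chosen after seeing the data.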

Additional observations from a re-analysis of the deposited data

Results flagged for a closer look

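For Rpl30 all 3 libraries given PA lay above the 3 given BSA in HKO and all 3 lay below in Flox. It was the only 1 of the 75 tested members whose PA effects were opposite and without overlap in both genotypes. Of all genes tested 2.72% had such opposite effects, whichever genotype was higher, so the count is no result about the family. Rpl30 had 306, 184.5 and 199 FPKM in HKO with PA, against 164, 146 and 178 FPKM in HKO with BSA, and 121, 120.9 and 114 FPKM in Flox with PA, against 132, 133.5 and 135 FPKM in Flox with BSA. Its log2 difference between the PA effects was 0.63 ± 0.24 (SE), which did not pass (adjusted p = 0.22, limma).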

How the results depend on the processing

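Among the members that had passed in HKO against Flox in PA, none changed direction under any alternative tried. The genes of the other lists and the changes relative to the family median were not looked up under the alternatives. The count of 45 members in HKO against Flox in PA was 26 with the length trend removed (25 higher, 1 lower), 26 with length and GC trends removed, and 27 to 49 with 1 library left out, and of the 45 genes 26 passed with each library left out. In HKO against Flox in BSA, where none passed, 1 did under quantile normalization (Rplp0, lower) and 2 with length and GC trends removed (Rplp2 and Rps9, lower). There 36 passed with library weights and 24 without library 1 of both HKO groups, most of them higher, and 0 to 8 with 1 library left out. For PA against BSA in Flox, 6 passed with library weights and 3 in a fit of only the groups compared, and the interaction gave 2 with library weights. PA against BSA in HKO gave 0 under all alternatives tried. The cause of these shifts was not tested. Counts under an alternative are given without the share of all genes that passed under it, which can shift as well. The median log2 change in HKO against Flox in PA ran from 0.37 to 0.70 with 1 library left out, and was 0.23 under quantile normalization (29 members higher, Rps2 and Rpl8 lower) and 0.25 with the length trend removed. With replicate number as a block, 47 members passed in HKO against Flox in PA and 0 in the other comparisons. Deviations from the group means correlated between same-numbered libraries at r = -0.243, 0.349 and -0.484 in HKO and 0.203, -0.015 and 0.316 in Flox. Between libraries with different numbers r ran from -0.211 to 0.509 in HKO and from -0.3 to 0.159 in Flox. The sample titles give the same numbers under both treatments. These values rest on 3 libraries per group, so they cannot tell whether same-numbered libraries share a mouse or preparation. Genic reads ran from 15020982 to 18418586 per library, and what share of the uncertainty comes from depth was not tested.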
